A study of Rattus norvegicus with 6 samples.

Results

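The deiodinase genes and the genes of the thyroid hormone response were followed in bulk RNA of rat intervertebral discs. They comprised the deiodinases Dio1, Dio2 and Dio3, the receptors Thra and Thrb, and the responsive genes Klf9 and Thrsp, 7 genes of the 30562 in the count table. The set was chosen because Dio1 was the member that rose most in the comparison described here, so the levels and fold changes of these 7 genes are a description and carry no test.

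Thyroid hormone leaves the thyroid mainly as the prohormone thyroxine, and deiodinases convert it within tissues. The enzymes encoded by Dio1 and Dio2 remove an outer-ring iodine to form the active hormone triiodothyronine, whereas the enzyme encoded by Dio3, and in part that of Dio1, removes an inner-ring iodine and inactivates the hormone. Triiodothyronine binds the nuclear receptors encoded by Thra and Thrb, which sit on DNA with retinoid X receptors and exchange corepressors for coactivators, and in cartilage this signal is known for its part in the maturation of chondrocytes.

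By the study's methods, the animals were male Sprague-Dawley rats of 12 weeks with a needle puncture of a tail disc. The Control group received PBS, and the other group received AF-PTK@LEV@SPP1, a liposome fused with bacterial outer membrane vesicles that bears a peptide for the annulus fibrosus on a cleavable linker and carries an siRNA against mouse Spp1. The injected volume was 10 µL with 1 mg/kg of siRNA, begun 24 h after surgery, and treatment lasted 8 weeks. The sample labels differ from this account, since they name untreated controls, a treatment of 14 days and macrophages sorted from mice. No group with the vesicle alone or with a scrambled siRNA was analysed here, so the parts of the agent cannot be told apart.

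The table held counts for 6 libraries, 3 in each group, with 15560728 to 17942989 counts per library. The columns of the table do not carry the sample titles, and they were matched to the groups and replicates by the group word and number in their names, so every direction below rests on that inferred match. Levels are normalised read counts relative to library size (CPM), and 3 reads corresponded to 0.157 to 0.196 CPM, taken as the smallest measurable level. Such limits cover counting error only. Control replicates 2 and 3 differed by little more than sampling noise, with 0.111% of genes differing between them against 38.4% to 55.5% in the 5 other pairs within a group. They were counted as 1 sample, which left 2 distinct Control samples and 3 of the other group.

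Spp1, the target of the siRNA, stood at 8263, 4469 and 4473 CPM in Control replicates 1, 2 and 3. Under the label AF-PTK@LEV@SPP1 it stood at 7944, 6775 and 8324 CPM. The groups overlapped, and Spp1 was not lower under the label of the siRNA, so every direction below refers to the labels, and the libraries carrying the label AF-PTK@LEV@SPP1 are called treated only by that label.

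The labelled cell type was compared with its markers. Col2a1, the main collagen of cartilage, reached 14113, 21403 and 21199 CPM in the Control libraries and 25606, 19998 and 31465 CPM in the others. Adgre1, which encodes the macrophage surface protein F4/80, stood at 43.6, 19.8 and 17.6 CPM and 15.1, 19.6 and 19.3 CPM, and the macrophage receptor gene Marco had no reads in any library. Other macrophage genes were higher, with Csf1r, the receptor gene for a macrophage growth factor, at 266, 147 and 149.6 CPM and 103, 109 and 99.4 CPM, and Mrc1, the mannose receptor gene, at 219, 182 and 181 CPM and 86.5, 121 and 94.4 CPM. Cartilage collagen was thus present at high levels in every library, and the libraries are described here as disc tissue and not as sorted macrophages.

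Several libraries stood apart in the markers of other cell types. Markers of skeletal muscle fibres summed to 1211, 1522 and 1545 CPM in the Control libraries and 1070, 11201 and 2909 CPM under the label AF-PTK@LEV@SPP1, with Acta1 the most abundant by counts. Erythroid markers summed to 2437, 3230 and 3320 CPM and 2475, 20220 and 13886 CPM, with Hba-a1 the most abundant. Replicates 2 and 3 of the treated label therefore carried the highest levels of blood genes, and replicate 2 of muscle genes. In bulk RNA, fewer cells of a type and less RNA per cell cannot be told apart.

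Dio1, on chromosome 5 at 122074279 to 122090970 of the table's coordinates, had 8, 10 and 11 reads in Control replicates 1, 2 and 3, or 0.418, 0.652 and 0.6801 CPM. It had 585, 206 and 359 reads under the label AF-PTK@LEV@SPP1, or 33.9, 12.2 and 20.1 CPM. All 3 treated libraries lay above all 3 Control libraries, with replicate 1 the highest and replicate 2 the lowest of them. The lowest treated library was 17.9 times the highest Control library. Dio1 averaged 0.542 ± 0.175 CPM in the Control group (SD, n = 2) and 22.1 ± 10.99 CPM under the label AF-PTK@LEV@SPP1 (SD, n = 3), and its log2 fold change was 5.33 (SE 0.61). By log2 fold change it ranked 8 among the 14444 genes tested whose mean log2 CPM was 0 or more.

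Dio2, the other activating deiodinase, stood at 46.7, 23.7 and 26.96 CPM in the Control libraries and 28.3, 42.2 and 43.6 CPM in the others. The groups overlapped, since Control replicate 1 was the highest of the 6 libraries. Its log2 fold change of 0.12 (SE 0.32) was smaller than its SE, and it was 0.61 without Control replicate 1. Dio3, the inactivating deiodinase, had 2, 3 and 3 reads in the Control libraries and 0, 3 and 2 reads in the others. It was at or under the smallest measurable level in every library, did not pass the filter on low counts, and no difference was detectable at this depth.

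**Figure D1:**
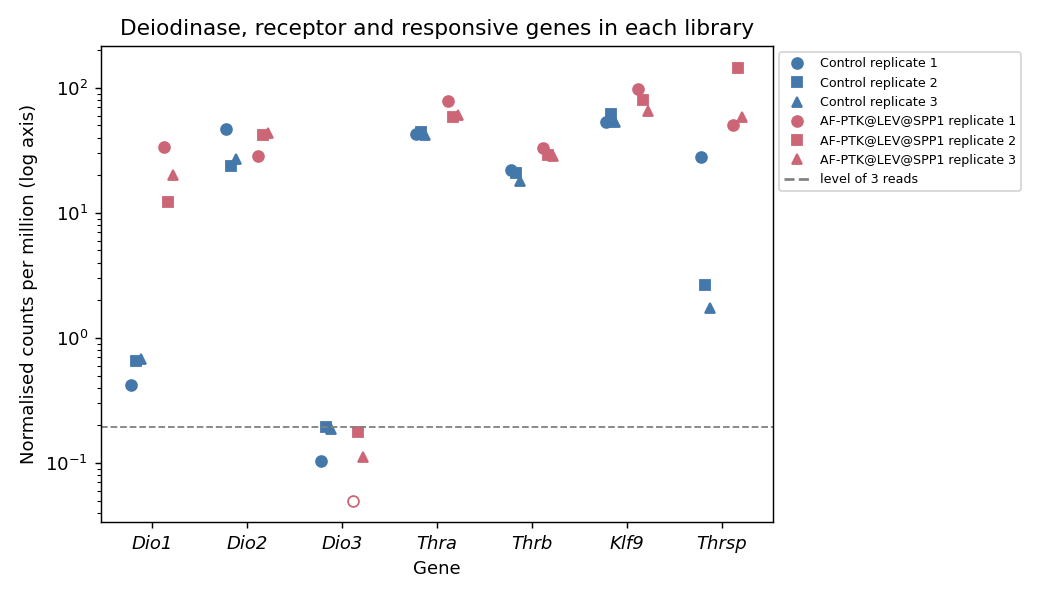
Normalised CPM on a log axis for the 7 genes, with 1 point per library, circles, squares and triangles for replicates 1, 2 and 3, and a dashed line at the level of 3 reads. Dio1 lies at or below 0.6801 CPM in the Control libraries and at or above 12.2 CPM in the others, Dio3 lies at or under the line, and its open point marks a library with 0 reads.

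Thra encodes the receptor that predominates in bone and cartilage. It stood at 42.3, 43.9 and 41.9 CPM in the Control libraries and 78.5, 58.9 and 60.4 CPM under the label AF-PTK@LEV@SPP1. The groups did not overlap, and replicate 1 of the treated label was the highest. The log2 fold change was 0.67 (SE 0.16), and 0.49 without that library. The annotated span of Thra shares 1619 bases with Nr1d1 on the opposite strand, and since the use of strand in counting was not stated, reads from that stretch cannot be told apart.

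Thrb, the second receptor gene, stood at 22.2, 20.8 and 17.9 CPM in the Control libraries and 33.2, 29.3 and 28.7 CPM in the others, again without overlap. It averaged 20.8 ± 2.03 CPM in the Control group (SD, n = 2) and 30.4 ± 2.43 CPM under the label AF-PTK@LEV@SPP1 (SD, n = 3). The log2 fold change was 0.59 (SE 0.13). Its span shares 361 bases with an unnamed gene on the opposite strand, with the same limit.

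Klf9, a Kruppel-like transcription factor gene induced directly by triiodothyronine and by glucocorticoids, stood at 52.9, 61.7 and 53.2 CPM in the Control libraries. Its levels were 97.8, 79.7 and 65.5 CPM under the label AF-PTK@LEV@SPP1. The groups came close, with the lowest treated library 1.06 times the highest Control library, and the log2 fold change was 0.59 (SE 0.19). Thrsp, which encodes a nuclear protein of lipogenic tissues, stood at 28.01, 2.67 and 1.73 CPM and 50.7, 145 and 58.1 CPM. Control replicate 1 lay far above the near-identical Control pair, and treated replicate 2 far above the other 2 treated libraries. Its log2 fold change was 2.55 (SE 1.14), and 5.29 without Control replicate 1.

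Of the 7 genes, 6 passed the filter. Across all 15537 genes tested, 1.13% were called higher and 2.57% lower under the label AF-PTK@LEV@SPP1 at an adjusted p under 0.05 in edgeR's quasi-likelihood test. By that rule 1 of the 6 was called higher and 0 lower. Every treated library lay above every Control library in 5 of the 6, as in 19.2% of all genes tested, and 22.8% of genes showed the opposite arrangement. Because the genes were chosen on this comparison, nothing is read from these counts.

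The genes with the pattern most like each member were taken as those with the smallest root mean square difference in centred log2 CPM over the 6 libraries. For Dio1 they were LOC681077, Grin2c, Scg5, Colec10 and LOC120103261, with differences of 0.321 to 0.7697. Grin2c, a glutamate receptor subunit gene, stood at 0.209, 0 and 0.124 CPM in the Control libraries and 7.48, 4.03 and 5.61 CPM in the others. For Thrsp they were Aox3, Adipoq, an unnamed gene, Stab2 and Fmo1, at 0.285 to 0.379. Adipoq, which encodes the adipocyte hormone adiponectin, stood at 108, 10.4 and 10.02 CPM and 292, 577 and 192 CPM, and thus repeated the low Control pair and the high treated replicate 2 of Thrsp. The closest genes were Zfyve21 for Thra, Pot1b for Thrb, Crim1 for Klf9 and AABR07058479.1 for Dio2, at 0.0355, 0.03401, 0.0498 and 0.0785.

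Marker lists of cell types were set beside these patterns. Over all genes tested, 25.4% had an unadjusted p under 0.05 in edgeR's test, DESeq2 called 6.9% higher and 9.02% lower, and limma-voom 0.895% and 2.03%, and these shares are the background of the counts below. The 10 adipocyte markers, all tested, had 0 called in edgeR's test, 7 at an unadjusted p under 0.05, 7 called higher by DESeq2 and 0 by limma-voom. Their sum was 1495, 324 and 327 CPM in the Control libraries and 4044, 4303 and 2547 CPM in the others, with Car3 the most abundant. Of the 5 brown adipocyte markers, 3 were tested, all 3 with a log2 fold change above 0. In edgeR's test 0 were called, and DESeq2 called 1 higher. Ucp1 was at or near 0 in every library, and Cidea overlapped between the groups. Prdm16 stood at 1.83, 1.30 and 1.73 CPM in the Control libraries and 4.29, 3.67 and 3.31 CPM in the others, without overlap. The part of adipocytes in the level of Thrsp was not tested.

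Of the 8 markers of the nucleus pulposus and notochord, 7 were tested and 0 were called in edgeR's test, with 5 at an unadjusted p under 0.05, 4 called higher and 1 lower by DESeq2, and 0 by limma-voom. They summed to 849.9, 411 and 404 CPM in the Control libraries and 4220, 1510 and 1798 CPM in the others, with Cd24 the most abundant. Tbxt, the defining transcription factor gene of the notochord, stood at 145, 17.7 and 17.5 CPM and 747, 302 and 327 CPM. As for Dio1, treated replicate 1 was the highest and replicate 2 the lowest of the treated libraries. Control replicate 1 was the highest Control library for Tbxt. Dio1 had only 8, 10 and 11 reads in Control replicates 1, 2 and 3. Its limits from counting error there were 0.180 to 0.824, 0.313 to 1.20 and 0.340 to 1.22 CPM. These limits overlapped, so the order of the Control libraries for Dio1 cannot be told. The part of nucleus pulposus and notochord cells in the level of Dio1 was not tested.

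Dio1 is best known from liver, kidney and thyroid. Of the 9 hepatocyte markers, 2 were tested, with 1 at an unadjusted p under 0.05 and 0 called in edgeR's test. DESeq2 called 2 of the 9 higher, 1 of them a gene outside edgeR's filter. The 2 tested were Serpina1, at 0.993, 0.912 and 1.05 CPM in the Control libraries and 8.12, 2.13 and 3.25 CPM in the others, and Tf, at 238, 111 and 115 CPM and 136, 561 and 629 CPM. Alb stood at 0, 0 and 0 CPM in the Control libraries and 0.116, 0 and 1.35 CPM in the others. Cps1 stood at 0, 0 and 0 CPM and 0.348, 0.296 and 1.57 CPM, and Fga had no reads. Of 5 thyroid follicular markers 3 were tested and 0 called in edgeR's test, with 2 at an unadjusted p under 0.05, and DESeq2 called 1 higher and 1 lower. The kidney genes Umod and Slc34a1 were at or near 0 in every library. Among the 6 kidney markers, 3 were tested, all 3 at an unadjusted p under 0.05, and limma-voom called 0. In edgeR's test and by DESeq2 1 was called, namely Cubn, which encodes an endocytic receptor. The other 2, Lrp2 and Slc5a2, had log2 fold changes of 1.72 (SE 0.47) and 1.71 (SE 0.55) at low levels, without overlap. Cubn made up most of the list's sum of 6.06, 5.996 and 6.24 CPM and 48.2, 20.7 and 36.2 CPM. It stood at 5.33, 4.95 and 5.503 CPM and 45.1, 18.6 and 34.7 CPM, with a log2 fold change of 2.67 (SE 0.42) and an adjusted p of 0.0419 in edgeR's quasi-likelihood test, in the same order of treated libraries as Dio1.

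Of 7 osteoclast markers tested, 0 were called higher and 5 lower in edgeR's test, beside 1.13% and 2.57% of all genes tested. DESeq2 called 6 lower and limma-voom 4, and Calcr overlapped between the groups. The osteoclast markers summed to 6613, 4281 and 4299 CPM in the Control libraries and 1106, 1077 and 757 CPM in the others. Ctsk, a bone-resorbing protease gene, was the most abundant of them. Macrophage markers summed to 1178, 739 and 735 CPM and 395, 680.3 and 539 CPM, with Mrc1 the most abundant and 1 of 9 tested called lower, Cd68, against 3 by DESeq2. Neutrophil markers summed to 1123, 175 and 165 CPM and 277, 2768 and 3836 CPM, and those of Schwann cells and nerve to 479.6, 545 and 523 CPM and 777, 1344 and 1885 CPM. Of 7 neutrophil markers tested, 0 were called in edgeR's test and 0 had an unadjusted p under 0.05. Of 7 Schwann cell and nerve markers tested, 0 were called, with 6 at an unadjusted p under 0.05, 6 called higher by DESeq2 and 0 by limma-voom. The part of these lists in the levels of the 7 genes was not tested.

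**Figure D2:**
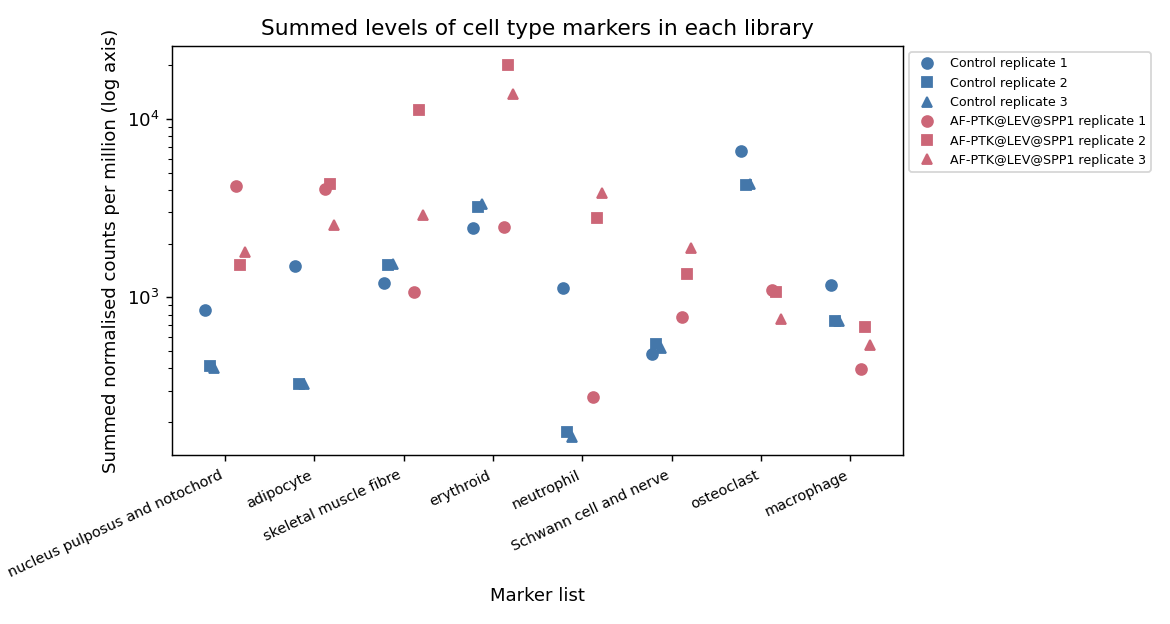
Summed normalised CPM of 8 marker lists on a log axis, with 1 point per library and symbols for replicates 1, 2 and 3. Osteoclast markers lie lower in every treated library, at most 1106 CPM, and adipocyte and notochord markers lie higher in every treated library.

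Genes around the hormone's path were read from 15 lists with 206 genes tested outside the 7 members. Of these, 2 were called higher and 6 lower, or 0.971% and 2.91%, close to the shares over all genes tested. Their median log2 fold change was 0.13, beside 0.05 for all genes tested. No gene was called in 12 of the lists, which together held 160 tested entries, with 44 at an unadjusted p under 0.05, beside 25.4% of all genes tested. In those lists DESeq2 called 18 entries higher and 10 lower, beside 6.9% and 9.02% of all genes tested, and limma-voom 1 higher and 0 lower.

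Cells take up thyroid hormone through membrane transporters. Slc16a10, an aromatic amino acid transporter gene, stood at 3.501, 0.847 and 1.24 CPM in the Control libraries and 2.67, 15.5 and 9.53 CPM in the others, highest in treated replicates 2 and 3. Slco1c1 was at or near 0 in every library. The 9 transporters tested had a median log2 fold change of -0.19, 0 were called in edgeR's test or by DESeq2, and the most abundant was Slc3a2. Crym, which encodes a cytosolic protein that binds triiodothyronine, had a log2 fold change of 0.95 (SE 0.44) at low levels.

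Of 23 partners and cofactors of the receptors tested, 0 were called in edgeR's test, with 5 at an unadjusted p under 0.05, 2 called higher by DESeq2 and 0 by limma-voom, beside 25.4% and 6.9% of all genes tested at that p and by DESeq2. Rxra, a retinoid X receptor gene, had a log2 fold change of -0.06 (SE 0.11), and Ncor1, the corepressor gene and the most abundant of the list, one of 0.30 (SE 0.14). The median of the 23 genes was 0.21. Among 28 other responsive genes tested, the median was 0.57, with 20 above 0, beside 54.2% of all genes tested. In edgeR's test 0 were called, with 8 at an unadjusted p under 0.05, and DESeq2 called 4 higher and 0 lower. Hr, a corepressor gene that triiodothyronine induces in brain, stood at 23.4, 41.6 and 37.5 CPM in the Control libraries and 84.7, 43.2 and 56.2 CPM in the others, without overlap and with an adjusted p of 0.181 in edgeR's test. Atp2a1, the muscle calcium pump gene, was the most abundant of the list and stood at 146, 1892 and 372 CPM in the treated libraries, in the order of the muscle markers.

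Thrsp works in fatty acid synthesis, and of its 15 lipogenic partners tested 15 had a log2 fold change above 0, against 14 with size factors of the DESeq2 type and 15 with library size alone, beside 54.2% of all genes tested. Their median was 0.45, and 0 were called in edgeR's test, with 2 at an unadjusted p under 0.05, beside 25.4% of all genes tested, and DESeq2 called 2 higher and 0 lower. Scd, a fatty acid desaturase gene, was the most abundant and stood at 642, 129 and 132 CPM in the Control libraries and 1091, 2416 and 815 CPM in the others. Its pattern had the low Control pair seen for Adipoq. Mid1ip1, the paralog of Thrsp, stood at 28.9, 31.5 and 28.7 CPM and 30.7, 34.8 and 33.2 CPM, with overlap and no such pattern. Of 18 circadian clock genes tested, 0 were called in edgeR's test, with 11 at an unadjusted p under 0.05, DESeq2 called 5 higher and 4 lower, and limma-voom 1 higher and 0 lower. Bhlhe40, the most abundant, stood at 139, 213 and 215 CPM in the Control libraries and 78.7, 49.4 and 56.5 CPM in the others, with a log2 fold change of -1.49 (SE 0.28) and an adjusted p of 0.0564 in edgeR's test. Nr1d1 stood at 8.46, 11.02 and 11.3 CPM and 52.8, 22.3 and 19.2 CPM, with a log2 fold change of 1.71 (SE 0.51) and an adjusted p of 0.128 in edgeR's test.

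In edgeR's test, calls fell mainly in the list of the glucocorticoid receptor and its targets. Of its 13 genes, 2 were called higher and 4 lower, beside 1.13% and 2.57% of all genes tested. DESeq2 called 2 higher and 5 lower, and limma-voom 2 higher and 3 lower. Nr3c2, which encodes the mineralocorticoid receptor, rose from 12.9, 8.604 and 10.1 CPM to 61.5, 34.5 and 47.3 CPM, with a log2 fold change of 2.14 (SE 0.30) and an adjusted p of 0.0364. Zbtb16, a glucocorticoid-induced transcription factor gene, rose by a log2 fold change of 1.64 (SE 0.25). Errfi1, a feedback inhibitor gene of the epidermal growth factor receptor, had a log2 fold change of -1.82 (SE 0.16), and Hsd11b1, whose enzyme regenerates active glucocorticoid, one of -1.80 (SE 0.29). The metallothionein genes Mt1 and Mt2A had -1.25 (SE 0.18) and -1.47 (SE 0.22), and as paralogs of similar sequence they may share reads.

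Deiodinases are selenoproteins, and of 20 other selenoprotein genes tested 0 were called higher and 1 lower in edgeR's test, beside 1.13% and 2.57% of all genes tested, while DESeq2 called 1 higher and 3 lower. Txnrd1, which encodes cytosolic thioredoxin reductase, fell from 81.2, 107 and 105 CPM to 43.4, 42.9 and 45.6 CPM, with a log2 fold change of -1.06 (SE 0.15) and an adjusted p of 0.0342 in edgeR's test. Selenop, the selenium carrier gene and the most abundant, had 0.24 (SE 0.29), Gpx3, a secreted peroxidase gene, -0.10 (SE 0.25), and Secisbp2, needed to insert selenocysteine, 0.24 (SE 0.10). A further list held genes tied to the regulation of deiodinase transcription. It does not separate which deiodinase a gene acts on, or whether it raises or lowers it. Of its 17 genes tested, 0 were called higher and 1 lower in edgeR's test, and DESeq2 called 1 higher and 4 lower. By limma-voom 0 of the 17 were called. Il6, an inflammatory cytokine gene, stood at 8.57, 18.6 and 16.7 CPM in the Control libraries and 0.116, 0.355 and 0.449 CPM in the others, with a log2 fold change of -5.36 (SE 0.57) and an adjusted p of 0.02303 in edgeR's test.

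Of 10 genes of the thyroid axis and follicle tested, 0 were called in edgeR's test, with 3 at an unadjusted p under 0.05, and DESeq2 called 1 higher and 2 lower. Tshr, the thyrotropin receptor gene, named whatever its value, stood at 5.02, 1.499 and 1.61 CPM in the Control libraries and 17.05, 22.9 and 12.6 CPM in the others. The groups did not overlap, and its log2 fold change of 2.48 (SE 0.58) missed the threshold with an adjusted p of 0.0827 in edgeR's test. Pax8, a transcription factor gene of the follicle, lay lower in every treated library, at 5.696, 2.87 and 3.28 CPM and 1.102, 0.7698 and 0.449 CPM, with a log2 fold change of -2.45 (SE 0.49) and an adjusted p of 0.0626 in edgeR's test. Tshr is also among the 3 nearest tested genes on one side of Dio2. Of the 18 nearest tested genes around the 3 deiodinases, Tshr included, 0 were called in edgeR's test, with 6 at an unadjusted p under 0.05, DESeq2 called 2 higher and 1 lower, and limma-voom called 0. Ift25, the nearest to Dio1 at a gap of 11858 bases, had a log2 fold change of 1.45 (SE 0.35), and Yipf1, the nearest on the other side, one of -0.08 (SE 0.12). Lrrc42 and Glis1, also near Dio1, had 0.69 (SE 0.23) and 1.15 (SE 0.42). Ift25, Lrrc42 and Glis1 lay higher in every treated library, as did 19.2% of all genes tested, while Yipf1, Ldlrad1 and Ndc1 overlapped between the groups. Dlk1, a gene of the imprinted domain that holds Dio3, stood at 0.993, 1.89 and 1.48 CPM and 1.51, 2.96 and 2.804 CPM.

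**Figure D3:**
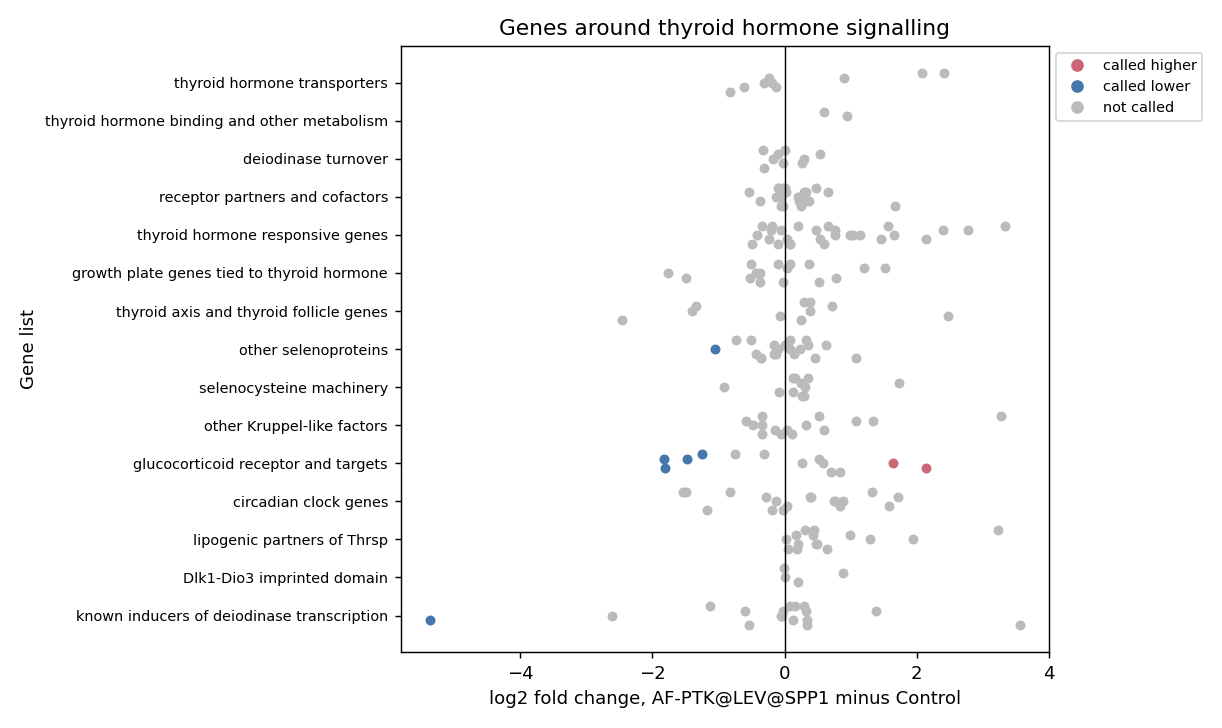
Log2 fold change of each tested gene in 15 lists, as AF-PTK@LEV@SPP1 label minus Control, with 1 point per gene and list. Coloured points passed an adjusted p under 0.05, 2 genes higher and 6 lower, and grey points did not.

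The calls rested on few samples. Without treated replicate 2, and likewise without treated replicate 3, edgeR called 0 genes in either direction across the table, with 3109 and 2699 at an unadjusted p under 0.05, so none of edgeR's calls named above passed without either library. DESeq2 and limma-voom were not refitted with libraries left out. The log2 fold change of Dio1 ranged from 4.85 to 5.62 when each library was left out in turn.

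The promoter of Dio1 is shown because its gene had the largest fold of the 7 in the main comparison. Without Control replicate 1 that of Thrsp was larger, at a log2 fold change of 5.29 against 5.06 for Dio1. All 7 members matched RefSeq promoter windows of build GRCr8, in 8 windows. The 250 bases before each start were searched on both strands for the hexamer AGGTCA, which thyroid hormone receptors bind, and for its direct repeat with a spacer of 4 bases. None of the 8 windows held either. Of 33469 windows, 14.1% held the hexamer and 1, or 0.003%, held the repeat. The repeat is so rare that its absence from these windows tells nothing. The absence of the hexamer says only that these letters are not in this stretch. The window of Dio1 lies at chr5:127319785-127320034 on the minus strand of GRCr8 and is written without capitals, since no motif was found.
Dio1: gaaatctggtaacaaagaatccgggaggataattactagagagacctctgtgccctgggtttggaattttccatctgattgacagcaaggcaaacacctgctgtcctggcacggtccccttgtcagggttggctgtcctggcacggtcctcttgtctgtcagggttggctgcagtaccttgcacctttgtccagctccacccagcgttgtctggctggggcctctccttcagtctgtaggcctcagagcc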

How the data were processed

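The authors deposited counts, whole reads per Ensembl rat gene and library. Their processing notes name FastQC, Trimmomatic, HISAT2, featureCounts and DESeq2, and the mouse build mm10, although the gene identifiers are those of rat. The rat build, the use of strand and the handling of shared reads are not given in the sources used here. The test was edgeR 4.0.16 under R 4.3.3 (trimmed mean of M-values, filterByExpr with a minimum count of 10, quasi-likelihood test, Benjamini-Hochberg adjustment over all genes tested). Libraries of a group in which under 1% of genes differed were summed, which left 5 distinct samples. Members and lists were chosen with earlier results of these data known. Named genes were taken from the members, a set of genes of the pathway, up to 4 called genes per direction and the most abundant gene of each list, the 3 nearest genes on each side of each deiodinase, the 5 genes of most similar pattern, and markers of cell types and follicle genes. DESeq2 1.42.0, limma-voom (limma 3.58.1), other normalizations and filters, a block and left-out libraries were alternatives. Protein sequences and levels per transcript length were not used here.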

Additional observations from a re-analysis of the deposited data

How the results depend on the processing

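The main comparison called 175 genes higher and 400 lower, with 2 and 6 genes of the pathway lists. With the near-identical Control pair kept as separate libraries, 1233 genes were called higher and 1494 lower, with 26 and 24 in the lists, since that pair then counts as 2 replicates. DESeq2 called 1080 and 1413, with 22 and 22 in the lists, and the cause was not tested. With no filter on low counts, 10 list genes were called lower. Leaving out each library in turn gave 0 to 170 genes higher and 0 to 396 lower, with 0 to 2 and 0 to 6 list genes. Without Control replicate 1, which leaves 1 distinct Control sample assumed to vary like the others, 65 and 215 genes were called, while 30 and 83 were called without treated replicate 1. Apart from the replicate block, the other alternatives kept all 4 counts within 1.5 times.

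Deviations from the group means correlated at -0.32, -0.27 and -0.08 between the groups for replicates 1, 2 and 3. Since Control replicates 2 and 3 were nearly identical, these values depend on each other. They cannot decide whether the replicate numbers pair the samples. With the replicate block on 6 libraries, 307 genes were called higher and 434 lower, with 9 and 10 list genes.

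The log2 fold change of no member changed sign in 96 refits. It moved by more than 1 SD of log2 CPM between replicates, from the mean of both groups' variances, in 2 of them. These were Thra (SD 0.16), to 0.49 without treated replicate 1, and Thrsp (SD 1.80), to 5.29 without Control replicate 1. Dio2 (SD 0.50) went to 0.61 without Control replicate 1, just within its SD, and Thrsp to 3.98 with the replicate block. With each group's variance weighted by its degrees of freedom, the SD was 0.19 for Thra and 0.45 for Dio2, by which Dio2 moved and Thra did not. Of 1304 refits of other named genes, 29 changed sign, none of them called, 35 passed the threshold anew and 78 no longer passed it. The sign changed with 6 libraries kept for Gpx3 (0.0184), Ppp2r5c (-0.00429) and Begain (0.20), in DESeq2 for Ppp2r5c (-0.0218) and Ndc1 (-0.00168), with size factors of the DESeq2 type for Ppp2r5c (-0.0125), without the filter for Ppp2r5c (-0.0371), Ndc1 (-0.0176) and Prr15 (-0.0115), in limma-voom for Begain (0.16), and with the replicate block for Gpx3 (0.0436), Ppp2r5c (-0.00292) and Begain (0.26). Over the left-out libraries, the log2 fold change ran from -0.23 to 0.26 for Gpx3, -0.14 to 0.0505 for Wsb1, -0.63 to 0.0575 for Col10a1, -0.0684 to 0.0332 for Ppp2r5c, -0.0486 to 0.0871 for Ndc1, -0.0647 to 0.00921 for Snw1, -0.42 to 0.80 for Begain and -0.0705 to 0.65 for Prr15. The causes were not tested. Depth limits Dio3, at or under 3 reads in every library.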
